A study of Mus musculus with 4 samples.

Results

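The 3p arms of mouse miR-6896 to miR-7094 were read in extracellular vesicles (EVs) from primary hepatocytes. They are labelled here as the mirtron class, and whether their hairpins are whole introns could not be checked. Members were taken by name, as every miRNA on the array numbered from miR-6896 to miR-7094, with an optional letter and the ending -3p, which gave 199 of 1881 miRNAs. EVs were profiled on 4 Agilent 1-colour (Cy3) mouse miRNA arrays, 1 per group, and each array held a pool of EVs from 4 animals. HFD-LKO EV came from Ggpps LKO mice on a high-fat diet (HFD), Chow-LKO EV from Ggpps LKO mice on chow, HFD-EV from wild-type (WT) mice on the HFD and Chow-EV from WT mice on chow. All mice were male, of the B6 strain and 20 weeks old, the diets ran for 12 weeks, and hepatocytes were cultured for 48 hours before EVs were collected. In LKO mice floxed Ggpps, which encodes the enzyme that makes geranylgeranyl diphosphate, had been removed by Mx1-Cre after injection of polyinosinic-polycytidylic acid. The Mx1 promoter answers to interferon and is not a hepatocyte promoter, and the methods do not say whether WT mice were injected. The arrays carry no probe for Ggpps, so its loss could not be checked here.

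Most miRNAs are cut from long transcripts by the nuclease Drosha and then by Dicer. Mirtrons bypass Drosha, since the splicing machinery releases a short intron that folds into a hairpin and is then cut by Dicer. The 3p arm of such a hairpin lies at the acceptor end of the intron, where a run of pyrimidines (C and U) and a final AG are needed for splicing. The 5p arm lies at the donor end of the same intron. Little is known of the function of most of these miRNAs in liver.

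Of the 199 members, 5 were above background on at least 1 array and 194 on none. Their mature sequences (RefSeq, GRCm38.p6) are shown first because all values of the comparisons rest on them, with the seed (bases 2 to 8, which pair with target RNAs) in capitals.

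miR-6976-3p: aUCUCCCUcccaacuccccag

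miR-7033-3p: uGCCUCCAuucucuugggcag

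miR-6973a-3p: cACUCUAAcccuaccuacccau

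miR-7036b-3p: uUCCUGGUgggccucggggucc

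miR-7045-3p: uCUCCCCCcucccccgcacag

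The 5p arms of the same hairpins are shown to set the arms side by side.

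miR-6976-5p: cAGGGAAGuugagaggaaaauug

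miR-7033-5p: uCUCCAGGagucugaggggcagg

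miR-6973a-5p: uACGGUGGgagggguggaguug

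miR-7036b-5p: aCGCGGGGuucucuguggaagc

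miR-7045-5p: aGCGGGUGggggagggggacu

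Each of these 3p arms had more C than its 5p arm, and each 5p arm had more G except that of miR-7036b. In miR-7036b both arms had 40.9% G, and the 3p arm had 31.8% C. C made up 66.7% of miR-7045-3p and G made up 66.7% of miR-7045-5p. miR-7036b-3p had 40.9% G, against 0% to 23.8% in the other 4 members, and neither it nor miR-6973a-3p ends in AG. miR-6976-3p, miR-7033-3p and miR-7045-3p end in CAG, the form a splice acceptor takes. No other miRNA of the array with a RefSeq sequence shared a seed with any of the 5.

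Related members that differ by a letter in the name are shown because they were below background on all 4 arrays.

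miR-6973b-3p: uGCUCUCUuacccuuccuag

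miR-7036a-3p: cCGUCCUCauccgcuccucccag

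In the best ungapped alignment, miR-6973a-3p (22 bases) and miR-6973b-3p (20 bases) had 14 identical bases. miR-7036a-3p (23 bases) and miR-7036b-3p (22 bases) had 8. Their seeds differ in both pairs.

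Most members with a known sequence were rich in pyrimidines and ended in AG. RefSeq held a mature sequence for 175 of the 199 members, and their median share of pyrimidines was 72%, with a range of 47.6% to 91.3%. It was 54.5% in the other 3p arms of the array. The mature sequence ended in AG in 136 of the 175 (77.7%) and in CAG in 118 (67.4%), while 56 of 500 other 3p arms (11.2%) ended in AG. Among hairpins, 162 of 175 (92.6%) ended in AG, against 71 of 825 other mouse hairpins (8.61%), and 27 (15.4%) began with GU, against 50 (6.06%). All 175 hairpins lay within the range of a protein-coding gene, against 474 of the 825 others (57.5%). Where the strand of that gene was known, in 153 cases, it was that of the hairpin in all 153, against 337 of 409 others (82.4%). The 3p arm reached the last base of its hairpin in 124 of 167 cases, and the members lay on 19 chromosomes, with at most 17 members on any. The hairpins of miR-6976, miR-7033, miR-6973a and miR-7045 ended in AG, that of miR-7036b did not, and none of these began with GU. Introns and exons could not be told apart, since only gene ranges were used. Over the 175 sequences there were 168 seeds, and 6 seeds were shared by 13 members. The seed of miR-7018-3p, miR-7023-3p and miR-7068-3p was the same in all 3, and none of them was above background.

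Few of the 3p arms were above background in any group, while many of their 5p arms were. A miRNA was counted when the scanner software marked a majority of the spots of any of its probes as well above background. By this rule 3 of 199 members were above background in HFD-LKO EV, 5 in Chow-LKO EV, 3 in HFD-EV and 4 in Chow-EV. The software's own call per miRNA gave 6, 5, 5 and 6 members in the same order, of 577, 541, 570 and 575 miRNAs in all. Over all 1881 miRNAs the share by the first rule was 27% in HFD-LKO EV, 25.6% in Chow-LKO EV, 26.2% in HFD-EV and 26.4% in Chow-EV. The 200 5p arms of the same numbers were above background in 101, 95, 99 and 101 cases in the same order. Other 3p arms lay between, with 130, 129, 116 and 122 of 586. Among the 198 hairpins with both arms on the array, 102 had only the 5p arm above background on any array, 2 only the 3p arm, 3 both arms and 91 neither. Probes differ in brightness for the same amount of RNA, so these are counts of arms above background and not amounts of RNA.

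**Figure D1:**
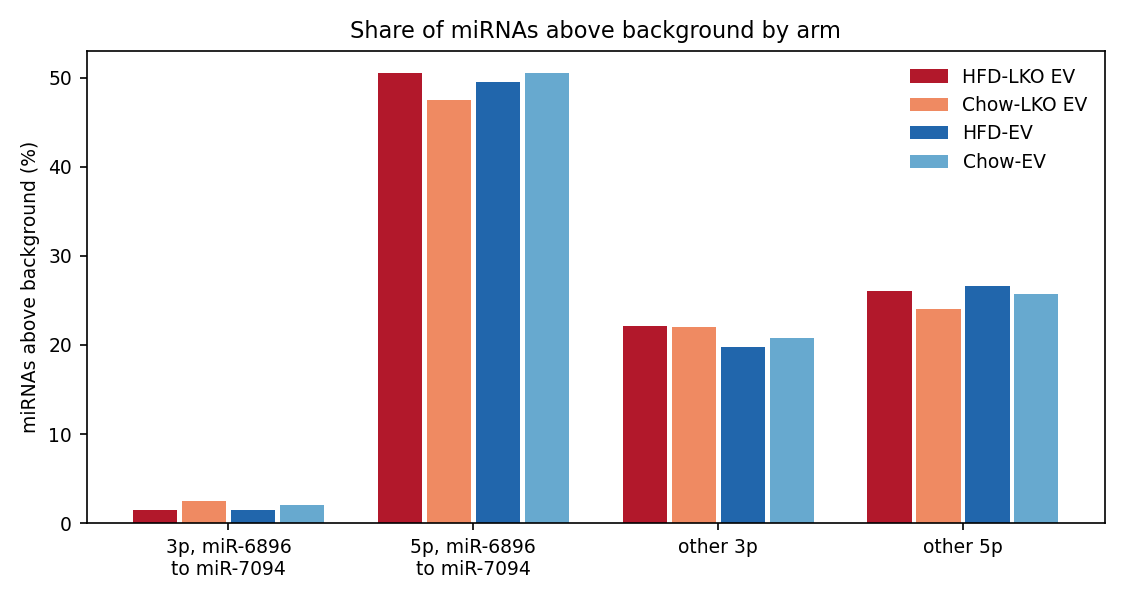
Share of miRNAs above background (%) on each array for the 3p and 5p arms of miR-6896 to miR-7094 and for all other 3p and 5p arms, with a bar per array. The 3p arms stay between 1.51% and 2.51% on the 4 arrays, against 47.5% to 50.5% for their 5p arms.

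Base composition moved with this count. The share above background on at least 1 array was 54.2% of 264 other miRNAs with under 40% pyrimidines and 2.25% of 89 other miRNAs with 70% or more. Of members with 70% or more pyrimidines, 3 of 109 (2.75%) were above background. With 60% to under 70%, 1 of 54 members (1.85%) was above background, against 22 of 177 other miRNAs (12.4%). With 50% to under 60%, it was 1 of 11 members (9.09%), against 96 of 426 other miRNAs (22.5%). By G content the picture varied. Under 10% G, 3 of 51 members (5.88%) were above background, against 9 of 85 other miRNAs (10.6%). At 10% to under 20% G it was none of 78 members, against 40 of 274 other miRNAs (14.6%). At 20% to under 30% G it was 1 of 40 (2.5%), against 89 of 422 (21.1%). At 30% to under 40% G it was none of 5, against 96 of 282 (34.0%). The 1 member with 40% G or more was above background, as were 132 of 194 other miRNAs (68.0%). No member had under 40% pyrimidines, and 81 of the 132 5p arms that did (61.4%) were above background. These shares are descriptions over miRNAs of the same 4 arrays, and the part of base composition in the low count was not tested.

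**Figure D2:**
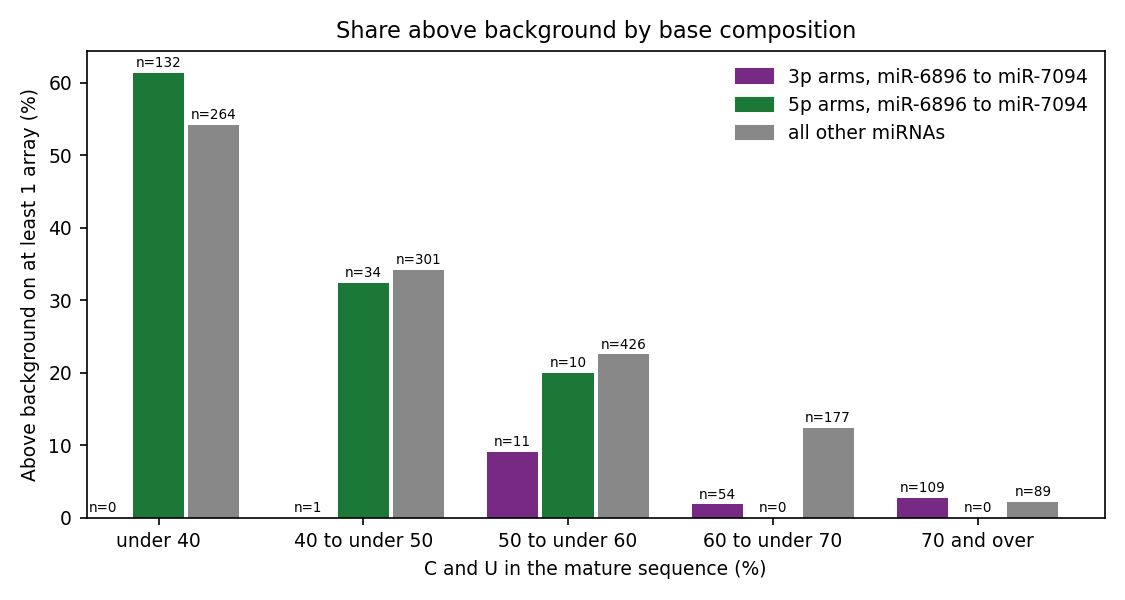
Share of miRNAs above background on at least 1 array (%) by the share of C and U in the mature sequence (%), for the 3p arms of miR-6896 to miR-7094, their 5p arms and all other miRNAs, with the number of miRNAs over each bar. In the group with 70% or more pyrimidines, the members stand at 2.75% and the other miRNAs at 2.25%.

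The 194 members below background on every array had signals close to 0 in the units of the scanner. Their median signal was -0.29 in HFD-LKO EV, -0.99 in Chow-LKO EV, -0.87 in HFD-EV and -0.62 in Chow-EV. Signals ranged from -5.18 to 21.0, and values below 0 arise because the software subtracts background. Of their 403 probes, 4, 2, 6 and 5 had any spot marked well above background in the same order. The spots of these members had medians of -0.10, -0.39, -0.38 and -0.30, against -2.24, -2.41, -2.41 and -2.84 for the negative control spots. The 95th percentile was between 4.98 and 6.13 for the members' spots and between 1.38 and 2.54 for the control spots. All members together gave at most 0.0533% of the signal that an array gave over its detected miRNAs.

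**Figure D3:**
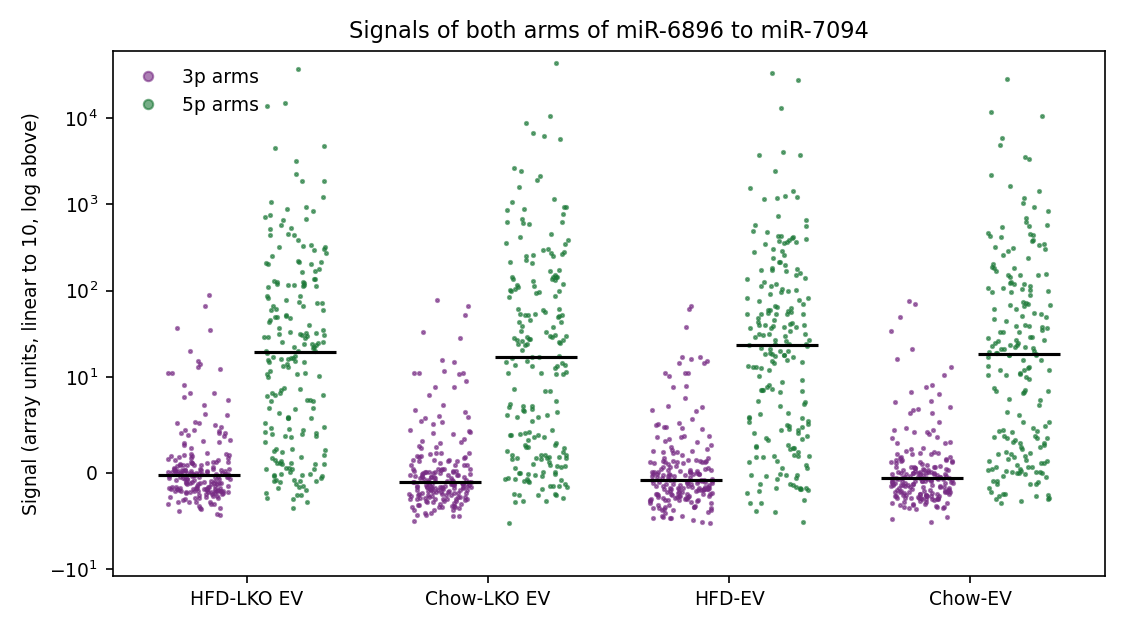
Signal of every 3p arm and 5p arm of miR-6896 to miR-7094 (array units, linear up to 10 and logarithmic above) on each array. Each point is a miRNA and the black lines are medians, which lie between -0.97 and -0.25 for the 3p arms.

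Of the members below background on every array, the software's own call counted miR-7022-3p, miR-7080-3p and miR-7028-3p. It counted miR-7022-3p in HFD-LKO EV, miR-7080-3p in HFD-LKO EV and HFD-EV, and miR-7028-3p in Chow-EV. miR-7022-3p had signals of 20.2 in HFD-LKO EV, 15.8 in Chow-LKO EV, 17.1 in HFD-EV and 8.46 in Chow-EV, and at most 26.7% of the spots of a probe were marked. miR-7028-3p had 3.35, 8.16, 9.05 and 21.0 in the same order, and in Chow-EV 35.7% of the spots of 1 of its probes were marked. miR-7080-3p had 11.0, 9.59, 14.4 and 4.28, most of it from 1 of its 2 probes. None of these 3 was above background by the rule used here.

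miR-6976-3p and miR-7033-3p were the members above background on all 4 arrays. miR-6976-3p, whose hairpin lies in Srf (serum response factor, a transcription factor of cytoskeletal and growth genes) at chr17:46553827-46553889 on the minus strand, had signals of 88.6 in HFD-LKO EV, 78.4 in Chow-LKO EV, 60.5 in HFD-EV and 76.7 in Chow-EV. HFD-EV was the lowest array and HFD-LKO EV the highest. Nearly all of this signal came from 1 of its 2 probes, at 82.8, 74.4, 56.7 and 72.2 in the same order. The other probe was at 5.82, 4.04, 3.84 and 4.48, with no spot marked above background.

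miR-7033-3p, in Pom121 (a protein of the nuclear pore) at chr5:135383730-135383810 on the minus strand, had signals of 66.0, 65.9, 66.6 and 70.8 in the same order of arrays. Both of its probes were above background on every array, and all their spots were marked. Its 4 values were within a spot SD of each other before scaling.

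miR-6973a-3p, in Ltb (lymphotoxin beta, a cytokine of lymphocytes) at chr17:35194972-35195049 on the plus strand, had signals of 35.0 in HFD-LKO EV, 51.9 in Chow-LKO EV, 37.9 in HFD-EV and 49.8 in Chow-EV. By the rule used here it was below background in HFD-LKO EV only, where 44.4% of the spots of 1 probe were marked. The software's own call per miRNA counted it on every array. All 3 of its probes were above background on the chow arrays, and 1 of 3 in HFD-EV. The chow arrays were higher than the HFD arrays in both genotypes.

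miR-7036b-3p, in Add1 (adducin 1, which caps actin filaments) at chr5:34574151-34574213 on the plus strand, had signals of 11.2, 28.1, 17.0 and 34.5 in the same order of arrays. By the rule used here it was above background on the chow arrays only, with 1 of 2 probes in Chow-LKO EV and both in Chow-EV. The software's own call per miRNA counted it in HFD-EV too. With every probe required it was above background in Chow-EV only.

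miR-7045-3p, in Chd4 (a remodeller of chromatin in the NuRD complex) at chr6:125097024-125097086 on the plus strand, had signals of 36.8 in HFD-LKO EV, 32.9 in Chow-LKO EV, 16.3 in HFD-EV and 16.1 in Chow-EV. By the rule used here it was above background on the LKO arrays only, with both probes in HFD-LKO EV and 1 of 2 in Chow-LKO EV. By the software's own call per miRNA it was above background in Chow-EV too. With every probe required it was above background in HFD-LKO EV only. The summed share of 5 leukocyte marker miRNAs was higher in LKO EVs on each diet. It was 0.105% and 0.0846% of the signal in HFD-LKO EV and Chow-LKO EV, against 0.0795% and 0.0598% in HFD-EV and Chow-EV. Of these markers, 3 of 5 were above background on each array. The erythroid markers, 1 of 2 above background, gave 0.0143% and 0.00865% in HFD-LKO EV and Chow-LKO EV, against 0.00679% and 0.00461% in HFD-EV and Chow-EV. The leukocyte and erythroid shares were also higher on the HFD than on chow in each genotype. The endothelial markers went the other way by genotype, at 0.176% and 0.171% in HFD-LKO EV and Chow-LKO EV, against 0.239% and 0.207%. The mesenchymal markers gave 0.0065% and 0.00806%, against 0.0047% and 0.00473%, and the hepatocyte markers 15.6% and 14.3%, against 15.9% and 15.3%. The part of leukocyte or erythroid RNA in the pattern of miR-7045-3p was not tested.

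**Figure D4:**
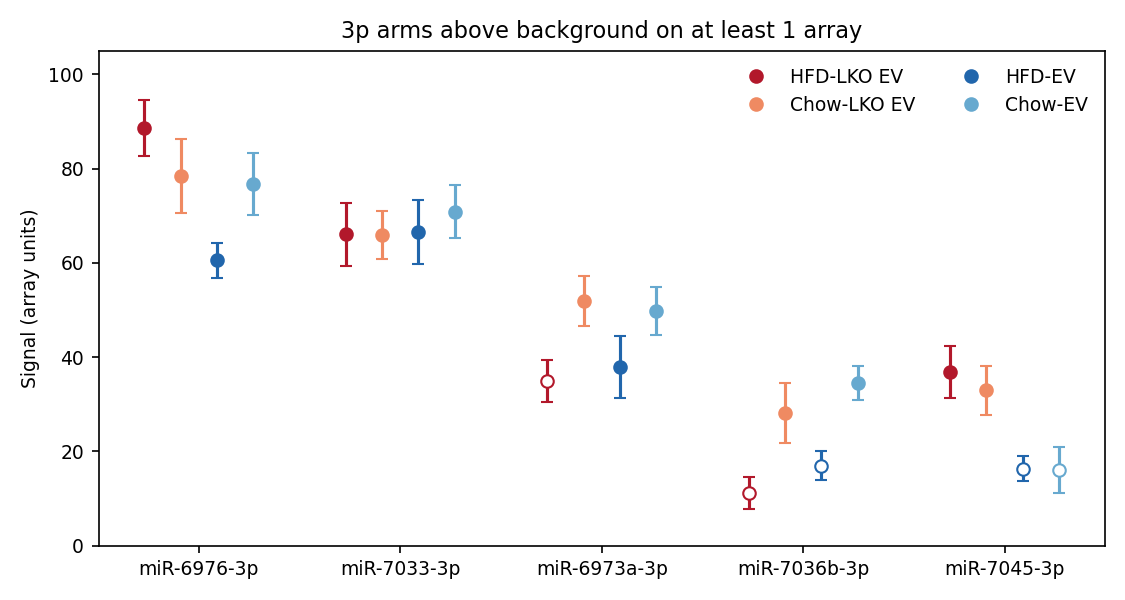
Signal (array units) of the 5 members above background on at least 1 array, by group. Points are sums over probes, bars are the SD between replicate spots, and open points are below background. By the rule used here miR-7036b-3p is above background on the chow arrays and miR-7045-3p on the LKO arrays. Other detection calls changed both patterns.

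The question of the comparisons was whether diet or the loss of Ggpps moved these miRNAs in hepatocyte EVs. Signals were scaled to the 75th percentile of their array and set as a log2 ratio, with an error that is the SD between replicate spots of an array. Each group is 1 array, so the spread between animals is unknown and no test was made. Where only 1 of the arrays compared was above background, the value is called a bound. Its dim side is the higher of the member's own signal and the lowest signal above background on that array. Only in the second case is it a lower limit, marked by "at least". No ratio or bound of a member reached 2-fold in any of the 4 comparisons. Scaled signals that include values below background differed by over 2-fold for miR-7045-3p, at 0.0697 in HFD-LKO EV and 0.0291 in HFD-EV. Those of miR-7036b-3p did too, at 0.0302 in HFD-EV and 0.0679 in Chow-EV, and at 0.0212 in HFD-LKO EV and 0.0457 in Chow-LKO EV. Under some other scalings, probe summaries or detection calls, miR-7036b-3p on the HFD and miR-7045-3p in LKO EVs passed 2-fold.

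In HFD-LKO EV over Chow-LKO EV, 3 members had a ratio and 2 a bound, and the median log2 ratio of the 3 was 0.38, against 0.14 over 466 miRNAs. The log2 ratio was 0.40 ± 0.18 for miR-6976-3p, 0.22 ± 0.18 for miR-7033-3p and 0.38 ± 0.31 for miR-7045-3p. miR-7036b-3p was at least 1.75-fold lower in HFD-LKO EV, and miR-6973a-3p was 1.28-fold lower by its own signals. Of all 522 miRNAs with a ratio or bound, 4.21% passed 2-fold upwards and 1.53% downwards. With quantile normalisation miR-7033-3p was at -0.01.

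In HFD-EV over Chow-EV, 3 members had a ratio and 1 a bound, with a median log2 ratio of -0.49, against 0.10 over 477 miRNAs. miR-6976-3p was at -0.49 ± 0.15, miR-6973a-3p at -0.54 ± 0.29 and miR-7033-3p at -0.23 ± 0.19. The bound put miR-7036b-3p in HFD-EV at least 1.91-fold below Chow-EV. Over 511 miRNAs, 2.74% passed 2-fold upwards and 1.76% downwards.

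For miR-6976-3p the diet ratios had opposite signs in the genotypes, each by more than 2 spot SDs with the main settings. Its ratio in LKO EVs was smaller with no scaling (0.18) and with the authors' values (0.11). The diet ratios of miR-7033-3p, the only other member that could be assessed, also had opposite signs, but within 2 spot SDs. How many of all miRNAs meet this rule was not counted, and spot SDs do not hold the spread between arrays or animals.

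In HFD-LKO EV over HFD-EV, 2 members had a ratio and 2 a bound. miR-6976-3p was at 0.64 ± 0.13 and miR-7033-3p at 0.08 ± 0.21 (-0.01 with no scaling), with a median of 0.36, against -0.06 over 474 miRNAs. miR-7045-3p was at least 1.96-fold higher in HFD-LKO EV. By its own signals miR-6973a-3p was 1.02-fold lower there, with no clear direction. Its probes had log2 ratios of -0.12 ± 0.59, 0.09 ± 0.50 and -0.02 ± 0.45. Over 521 miRNAs, 7.87% passed 2-fold upwards and 7.49% downwards, the largest shares of the 4 comparisons.

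In Chow-LKO EV over Chow-EV, 4 members had a ratio and 1 a bound, with a median of -0.31, against -0.13 over 463 miRNAs. The values were -0.24 ± 0.19 for miR-6976-3p, -0.38 ± 0.16 for miR-7033-3p, -0.21 ± 0.21 for miR-6973a-3p and -0.57 ± 0.36 for miR-7036b-3p. With no scaling miR-6976-3p was at 0.03 and miR-6973a-3p at 0.06, while miR-7036b-3p was at 7.09 when the software's own sum per gene was used. For miR-7036b-3p that sum did not follow the spot signals, which were 28.1 in Chow-LKO EV and 34.5 in Chow-EV. By its own signals miR-7045-3p was 1.69-fold higher in Chow-LKO EV, with probe log2 ratios of 0.94 ± 0.63 and 0.57 ± 0.75. Over 514 miRNAs, 2.92% passed 2-fold upwards and 5.45% downwards. The 4 comparisons share arrays, so their values are not independent.

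**Figure D5:**
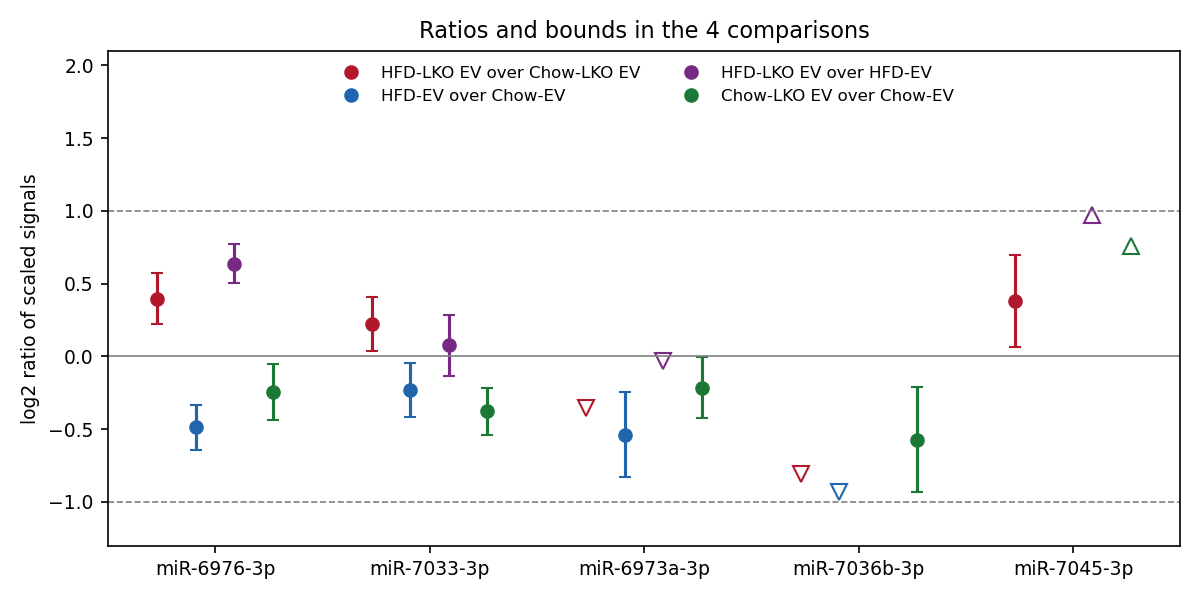
Log2 ratio of scaled signals for the 5 members in the 4 comparisons. Points are ratios with the SD between replicate spots, open triangles are bounds that point away from 0, dashed lines mark 2-fold. All points and bounds lie inside the dashed lines, the bound of miR-7045-3p in HFD-LKO EV over HFD-EV being nearest.

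The 5p arms of the same hairpins did not follow the 3p arms in whether they were above background. miR-6976-5p and miR-7036b-5p were below background on every array, while their 3p arms were not. miR-7033-5p had signals of 250.0, 255.5, 259.3 and 205.8 in HFD-LKO EV, Chow-LKO EV, HFD-EV and Chow-EV. miR-7045-5p had 570.6, 923.9, 425.7 and 454.1, and miR-6973a-5p had 71.5, 95.3, 65.9 and 67.6. The log2 ratio of miR-7045-5p in Chow-LKO EV over Chow-EV was 0.75 ± 0.06 and in HFD-LKO EV over HFD-EV 0.51 ± 0.07. By the rule used here miR-7045-3p was above background on the LKO arrays only and has bounds in these comparisons. The diet ratio in LKO EVs was -0.48 ± 0.06 for miR-7045-5p and 0.38 ± 0.31 for miR-7045-3p. This 3p value was within 2 spot SDs, and it was 0.06 with the authors' values. For miR-7033 the diet ratio in WT EVs was 0.19 ± 0.08 for the 5p arm and -0.23 ± 0.19 for the 3p arm, the latter within 2 spot SDs.

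Mirtrons with lower numbers showed the same order of arms in part. miR-1224-5p was above background on all 4 arrays, with signals of 15485, 20460, 9467 and 15303 in HFD-LKO EV, Chow-LKO EV, HFD-EV and Chow-EV, while miR-1224-3p was below on all. miR-877-5p, at 89.6, 148.9, 117.1 and 171.3, was above background on all 4 and miR-877-3p on none. Neither arm of miR-702 was above background. miR-320-3p, which also forms without Drosha but is not a mirtron, was above background on all 4 arrays at 133.4, 144.5, 108.8 and 108.0, and miR-484 on none.

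The EV samples carried the miRNAs of hepatocytes. The 4 hepatocyte markers were above background on every array, with 14.3% to 15.9% of the summed signal. Of the leukocyte markers 3 of 5 were above background, of the erythroid 1 of 2, of the endothelial 2 of 2 and of the mesenchymal 1 of 5, and no such list passed 0.239% of the signal. The dimmest miRNA counted as above background had a signal of 13.8 in HFD-LKO EV, 17.0 in Chow-LKO EV, 19.9 in HFD-EV and 15.5 in Chow-EV.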

How the data were processed

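Total RNA of EVs was hybridised to 4 arrays on 1 slide. Spot intensity, as deposited by the authors, comes from Agilent Feature Extraction 10.7.1.1, with background subtracted inside each array and no scaling from array to array. The log2 values are, as deposited, normalised signals. The methods name U6 as the normaliser, but no probe has that name. Columns of the authors' own fold changes were not used, nor were 4 columns of per-sample values, of which 3 repeat values used here and the other, for HFD-EV, does not match the HFD-EV values of the comparison table.

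Control and outlier spots (2146 to 2544 of 56430 per array) were left out, spots were averaged per probe and probes summed per miRNA (2 probes for 183 members, 3 for 16). Arrays were divided by the 75th percentile over 443 miRNAs above background on all 4. In a bound, the dim side is the higher of its own signal and the lowest signal above background on that array. The steps were tested on simulated data, with 200 miRNAs of signal over 50 changed by diet and a median offset taken off. In the diet comparisons 197 (LKO) and 194 (WT) came back within 0.25 log2. In the genotype comparisons, where no change was set, 191 (HFD) and 198 (chow) did. Marks above background were not simulated, so dimmer members and bounds were not covered. The members and lists were chosen with earlier results of these data known. Members named are those above background on any array, those with opposite diet ratios, and their 5p arms. miR-7022-3p, miR-7080-3p and miR-7028-3p, and the a and b relatives, were named after their values were seen. Sequences are from RefSeq (GRCm38.p6), and 24 members had no match there. The deposited probe sequence, 12 to 20 bases long, was complementary to the 3′ end of the mature sequence for all 175 matched members. Alternatives covered scaling, background correction (limma 3.58.1, normexp with an offset of 50), probe summary, detection, the authors' values and the fold rule. Python 3.11.15, numpy 2.4.6, pandas 2.3.3, matplotlib 3.10.9 and R 4.3.3 were used.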

Additional observations from a re-analysis of the deposited data

Results flagged for a closer look

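miR-6976-3p had diet ratios of opposite sign in the genotypes. Its log2 ratio was 0.40 ± 0.18 in HFD-LKO EV over Chow-LKO EV and -0.49 ± 0.15 in HFD-EV over Chow-EV, a difference of 0.88 ± 0.23 (SD between replicate spots). The difference was not tested, since each group is 1 array, and how many of all miRNAs meet the same rule was not counted. Over 12 settings that gave a value, the ratio lay between 0.11 and 0.45 in LKO EVs and between -0.58 and -0.24 in WT EVs. The signal comes from 1 of its 2 probes, and the second probe was below background on every array. With every probe required there was therefore no ratio.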

How the results depend on the processing

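No paired analysis was possible because each group is 1 array. No replicate was left out, and the spread between animals is unknown. The limits are 5 members near background and signals of under 100 array units, where background correction weighs most. The cause of the changes below was not tested.

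With the detection call of Feature Extraction, 6 members were above background in HFD-LKO EV and 5 in HFD-EV, against 3 and 3, of 577 and 570 miRNAs in all. With every probe required, 2 were above background in Chow-LKO EV and 1 in HFD-EV, against 5 and 3, of 354 and 381 miRNAs in all.

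The median log2 ratio of HFD-LKO EV over Chow-LKO EV (0.38) was 0.16 with no scaling, 0.19 with normexp, 0.11 with every probe required and 0.0674 with the authors' values. That of HFD-EV over Chow-EV (-0.49) was -0.20 with normexp, -0.20 with every probe required and -0.19 with the authors' values. That of HFD-LKO EV over HFD-EV (0.36) was 0.15 with normexp, 0.0721 with the Feature Extraction call, -0.00525 with every probe required and 0.18 with the authors' values. That of Chow-LKO EV over Chow-EV (-0.31) was -0.0366 with no scaling.

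Counts at 2-fold were 0 in every comparison by the main settings, and the count over all miRNAs under the same setting stands in brackets. In HFD-LKO EV over Chow-LKO EV, 1 member (miR-7036b-3p) was lower with no scaling (23 of 519), quantile normalisation (18 of 518), the total gene signal (22 of 506), the Feature Extraction call (7 of 586) and a limit of 1.5-fold (41 of 522). In HFD-EV over Chow-EV, 1 (miR-7036b-3p) was lower with the percentile over all miRNAs (15 of 512), quantile normalisation (14 of 512), the median of spots (12 of 513) and 1.5-fold (69 of 511), and 2 with the Feature Extraction call (with miR-7028-3p, 21 of 599). In HFD-LKO EV over HFD-EV, 1 (miR-7045-3p) was higher with the percentile over all miRNAs (50 of 523), quantile normalisation (47 of 523), the total gene signal (55 of 511), outlier spots kept (42 of 521), the median of spots (43 of 524) and the Feature Extraction call (58 of 607), and 2 with 1.5-fold (with miR-6976-3p, 83 of 521). In Chow-LKO EV over Chow-EV, miR-7045-3p was the 1 higher with no scaling (37 of 511) and with 1.5-fold (61 of 514). With the total gene signal the 1 higher was miR-7036b-3p (22 of 502), at a log2 ratio of 7.09, against -0.57, and with the Feature Extraction call the 1 lower was miR-7028-3p (47 of 585). The total gene signal of miR-7036b-3p did not follow its spot signals, which also limits its call with that setting in HFD-LKO EV over Chow-LKO EV. With no scaling the median log2 ratio of all miRNAs was -0.08, 0.25, -0.15 and 0.14 in the 4 comparisons in this order.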
